A study of Mus musculus with 6 samples.

Results

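Transcripts of the nuclear pore and of the mRNA export machinery were followed through an anti-FLAG RNA immunoprecipitation (RIP-seq) of LIN28B from mouse B cell progenitors. Members were taken by gene symbol from the 54752 genes quantified: every symbol made of Nup and a number, Thoc1 to Thoc7, and Nxf1, Nxt1, Alyref, Ddx39, Ddx39b, Rae1, Ndc1, Pom121, Tpr, Seh1l, Sec13, Gle1, Ran and Ranbp1. This gave 40 transcripts, of which 26 encode pore proteins, 12 encode export factors and the other two are Ran and Ranbp1. All 3 inputs reached at least 5 FPKM (fragments mapped per kilobase and library size, a level scaled to transcript length) for 37 of the 40, namely 23 pore proteins, all 12 export factors, Ran and Ranbp1. These 37 were tested among 7837 genes that met the same minimum. Nup155, Nup133 and Nup210l did not meet it.

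The tet-LIN28B mice were adult (10 to 16 weeks for the adult mice of the study) and carried Col1a tetO-LIN28B, a FLAG-tagged human Lin28b cDNA that doxycycline (Dox) switches on, on 1 allele, together with Rosa26 rtTA*m2, the Dox-responsive activator. The littermate control was heterozygous for Rosa26 rtTA*m2 and had no tagged protein for the antibody to bind. Bone marrow freed of adherent cells from both genotypes was kept in IL-7 (20 ng/mL) and Dox (0.1 mg/mL per the labels, 0.1 µg/mL per the study's methods) for 5 days. Input and anti-FLAG IP were sequenced from 2 tet-LIN28B mice and 1 control, 6 libraries in 4 groups, so each IP has the input of its own mouse. LIN28B was thus ectopic in adult cells, and the cultures were expanded whole marrow and not sorted cells.

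The nuclear pore complex is a ring-shaped channel through the nuclear envelope. Its outer ring (Y complex) and inner ring form the scaffold, membrane nucleoporins anchor it, FG nucleoporins fill the channel, and filaments and a basket extend to the cytoplasm and the nucleus. An mRNA leaves after the THO complex, a DEAD-box helicase and the adaptor ALYREF have loaded the receptor NXF1-NXT1 onto it, whereas most proteins cross with importins and exportins that read the RAN-GTP gradient. LIN28B is an RNA-binding protein of fetal cells, known for blocking let-7 maturation through the GGAG motif of let-7 precursors, and it also binds mRNAs.

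B cell progenitor markers summed to 11310 to 14400 FPKM in the inputs, with Vpreb3 the highest. Myeloid markers were also present, with sums of 3656 and 2289 FPKM for tet-LIN28B and 3059 for the control, mostly S100a8. Markers of T cells summed to 14.3 to 53.8 FPKM and those of erythroid, stromal and NK or mast cells to at most 39.5 FPKM. No list had a marker at 0 in every input, and their part in the results was not tested. Across the genes tested, the 3 inputs correlated at r = 0.985 to 0.989 and both tet-LIN28B IPs at 0.971, whereas each tet-LIN28B IP correlated with its own input at 0.805 and 0.843 and the control IP with its input at 0.955. The median log2 IP/input of all genes tested was -0.37 for tet-LIN28B mouse 1, -0.24 for mouse 2 and 0.01 for the control, so that the median difference between genotypes was -0.38 before any member is considered. The deposited FPKM carry no counts, so the depth behind them is unknown.

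In the tet-LIN28B mice 8 of the 37 members were higher in the IP than in the input and 14 were lower, by limma on log2((IP + 1)/(input + 1)) with an adjusted p under 0.05. Of all genes tested, 20.4% were higher and 41.9% lower, so both shares of the members were near the background. Against the control, IP/input was higher for 4 members, Nup107, Nup85, Ran and Alyref, and lower for 1, Ddx39b. The background was 4.86% of genes higher and 22.3% lower, so more of all genes than of the members were lower. IP/input lay above the control in both tet-LIN28B mice for 13 members, below it in both for 23 and on either side of it for 1, compared with 27.3% of all genes above and 60.2% below. An average IP/input of at least 2 was reached by 5 members (Nup85, Alyref, Ran, Nup107 and Nup93), and by 9.84% of all genes. In the control the same ratio was reached by Nup210, Nup50 and Seh1l, and by 4.54% of all genes. A ratio of 0.5 or less was found for 7 members in tet-LIN28B (29.8% of all genes) and for 2, Nup188 and Nup35, in the control (3.09%).

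**Figure D1:**
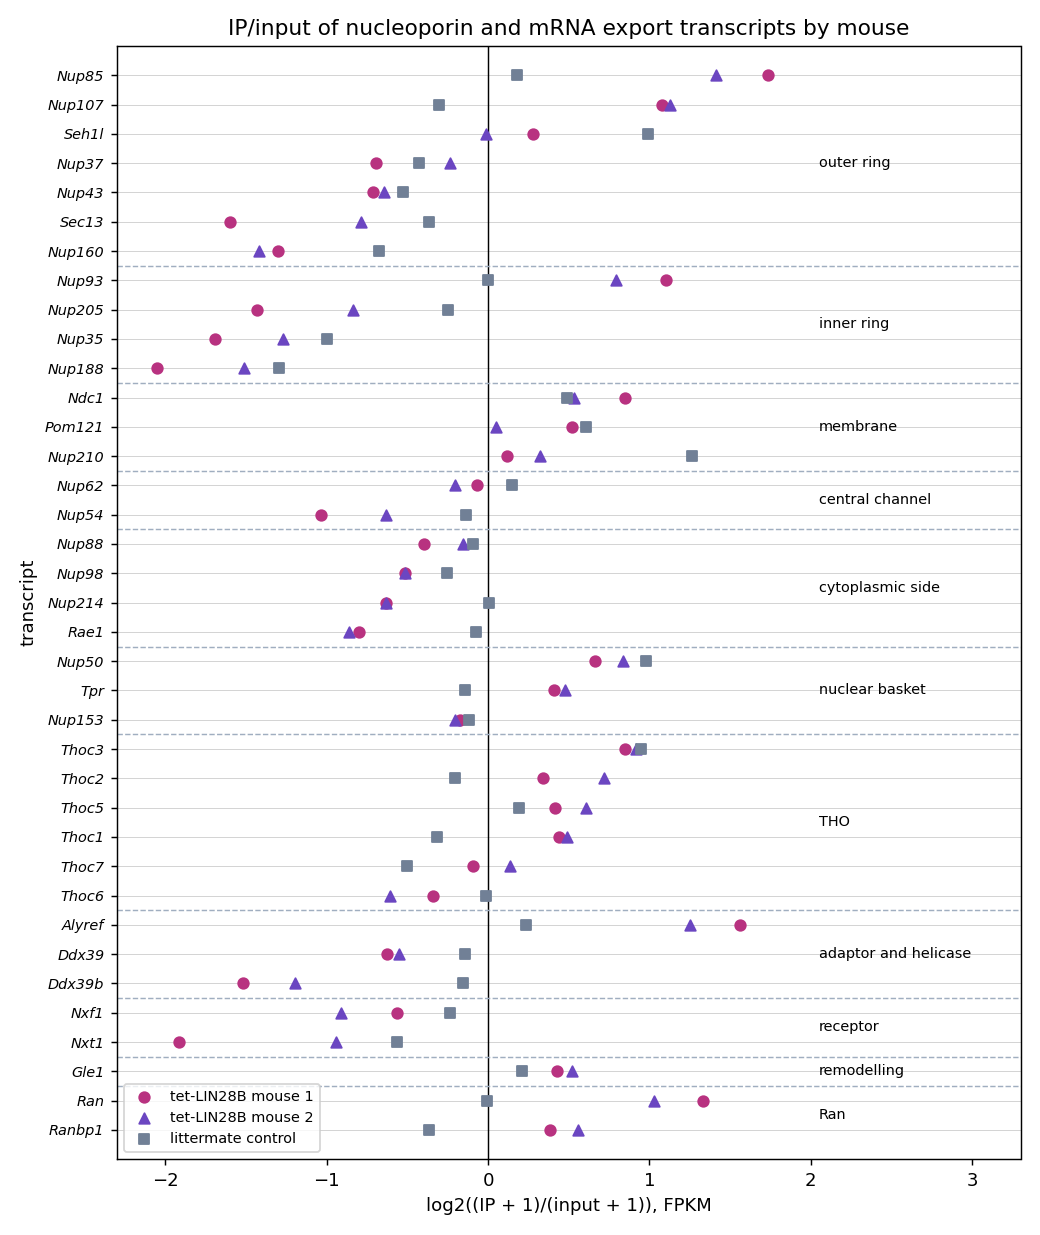
Log2((IP + 1)/(input + 1)) of FPKM on the x axis for the 37 members tested, grouped by their place in the pore or in export, with circles and triangles for the 2 tet-LIN28B mice and squares for the control. Nup85, Nup107, Ran and Alyref lie above 1 in both tet-LIN28B mice and at or below 0.23 in the control, and Nup210, Seh1l and Nup50 are farthest to the right in the control.

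Since 2 tet-LIN28B mice met 1 control, there was 1 residual degree of freedom per gene, limma took most of the spread from all genes together, and the test gives the single control the same spread as the tet-LIN28B pair. The sample titles name biological replicates while the study once calls the pair technical, so the p-values measure only the spread between these samples. With a pseudocount of 0.1 in place of 1 no member passed against the control, the 5 called above having adjusted p-values of 0.054 to 0.072. Without the mouse as a block, Nup107 and Nup85 passed, and Ran, Alyref and Ddx39b did not (adjusted p = 0.068, 0.073 and 0.063).

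LIN28 proteins contact GGAG in let-7 precursors, so the GGAG matches of the members were looked up on the sense strand of their GENCODE M21 transcript models (GRCm38, the build of the deposited values). Every member tested held GGAG and GGAGA somewhere in its model, as did 98.9% and 92.7% of all genes tested. Shown are the 4 members called higher against the control, the 1 called lower, and Nup160, Nup188 and Nxt1, which were picked from the low ratios after their values were seen. For each, the 60 coding bases within 1 exon that hold the most GGAG are printed 5′ to 3′, with GGAG in capitals.
Nup85, chr11:115578494-115578553, plus strand: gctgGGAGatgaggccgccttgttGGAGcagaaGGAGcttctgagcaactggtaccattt
Nup107, chr10:117770396-117770455, minus strand: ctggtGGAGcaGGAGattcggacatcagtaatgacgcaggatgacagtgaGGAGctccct
Ran, chr5:129022426-129022485, plus strand: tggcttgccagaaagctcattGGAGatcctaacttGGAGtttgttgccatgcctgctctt
Alyref, chr11:120597652-120597711, minus strand: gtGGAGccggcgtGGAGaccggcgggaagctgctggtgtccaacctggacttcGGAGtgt
Ddx39b, chr17:35252796-35252855, plus strand: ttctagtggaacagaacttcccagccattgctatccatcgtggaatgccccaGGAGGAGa
Nup160, chr2:90725612-90725671, plus strand: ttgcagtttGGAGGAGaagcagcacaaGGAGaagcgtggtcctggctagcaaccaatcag
Nup188, chr2:30304303-30304362, plus strand: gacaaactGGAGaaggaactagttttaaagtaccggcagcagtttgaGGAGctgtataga
Nxt1, chr2:148675523-148675582, plus strand: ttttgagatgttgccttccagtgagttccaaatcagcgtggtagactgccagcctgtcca
Nup85, Nup107, Alyref and Nup160 reached 3 matches, overlapping ones included, Ran, Ddx39b and Nup188 reached 2, and no such window of Nxt1 held any. Of all 60-base coding windows of the genes tested, 36.2% held at least 1 match, 9.31% at least 2 and 2.16% at least 3. These background windows were taken on joined coding sequence and could cross exon borders, unlike the printed ones. The printed windows were chosen for their matches, so these shares are a background and no test. In the printed window Nup160, with IP below input, matched as often as Nup85, with IP above it. The Nup160 model is longer, 5684 nt against 2230 nt for Nup85, and holds 4.57 GGAG per kilobase against 9.87. The other printed members do not follow this pair. Nxt1 and Nup188, also with IP below input, held 9.86 and 7.88 per kilobase, and Ddx39b held 6.32. Nup107, Alyref and Ran, with IP above input, held 8.67, 6.8 and 6.19. A match is not a binding site.

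Of the outer ring, whose Y-shaped complexes make the scaffold on both faces of the pore, 2 of the 7 members tested rose in the IP, 3 fell and 2 did not pass. Over all genes tested, 20.4% rose and 41.9% fell. Nup85, an arm of the Y complex, measured 81.7 FPKM in the input and 275 in the IP of tet-LIN28B mouse 1, 83.2 and 223 in mouse 2, and 85.5 and 97.1 in the control. Its inputs lay close together, both tet-LIN28B IPs exceeded the control IP, and the IP/input ratio was 3.02 ± 0.482 (SD, n = 2) against 1.14 in the control. The difference from the control on the log2 scale was 1.39 ± 0.34 (SE), with an adjusted p of 0.019. Nup107, a stem subunit of the Y complex, measured 11.3 FPKM in the input and 24.9 in the IP of tet-LIN28B mouse 1, 10.9 and 25.01 in mouse 2, and 12.1 and 9.59 in the control. Its IP was above the input in both tet-LIN28B mice and below it in the control, with ratios of 2.25 ± 0.0552 (SD, n = 2) against 0.795 in the control. The log2 difference from the control was 1.40 ± 0.35 (SE) and passed the test (adjusted p = 0.020).

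The other subunits tested were not called against the control. Nup160, which makes the other arm of the Y, measured 11.5 FPKM in the input and 4.06 in the IP of tet-LIN28B mouse 1, 14.6 and 4.83 in mouse 2, and 13.5 and 8.09 in the control. IP was below input in all 3 mice, and the ratio was 0.343 ± 0.0164 (SD, n = 2) against 0.598 in the control. IP against input passed the test in tet-LIN28B (-1.36 ± 0.20 (SE), adjusted p = 5.0e-04), but the difference from the control did not (-0.68 ± 0.35 (SE), adjusted p = 0.18). Sec13, which also coats ER-derived COPII vesicles, measured 54.1 FPKM in the input and 17.2 in the IP of tet-LIN28B mouse 1, 58.4 and 33.4 in mouse 2, and 65.4 and 50.4 in the control. Both tet-LIN28B ratios, 0.317 and 0.572, were below the control's 0.771 (adjusted p of the difference = 0.16). Seh1l, which also belongs to the GATOR complex of amino acid sensing, was at 27.5 FPKM in the input and 33.6 in the IP of tet-LIN28B mouse 1, 25.3 and 25.1 in mouse 2, and 26.95 and 54.6 in the control. Here the control IP was the highest of the 3, and the log2 difference of -0.86 ± 0.35 (SE) did not pass (adjusted p = 0.10). Nup43, a small partner of Nup85, measured 15.6 FPKM in the input and 9.11 in the IP of tet-LIN28B mouse 1, 15.8 and 9.72 in mouse 2, and 16.5 and 11.2 in the control. Nup37, a small partner of Nup160, measured 44.8 FPKM in the input and 27.2 in the IP of tet-LIN28B mouse 1, 55.98 and 47.4 in mouse 2, and 55.8 and 41.2 in the control. The Nup43 IP was below the input in each mouse by a like ratio, with a log2 difference from the control of -0.15 ± 0.35 (SE), and Nup37 was the 1 member whose tet-LIN28B ratios, 0.609 and 0.846, fell on either side of the control's 0.739. Nup133, the stem tip subunit, was at 3.75 to 4.25 FPKM in the inputs and was not tested. Its IPs were at 4.58 and 6.21 FPKM in tet-LIN28B and 7.12 in the control.

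**Figure D2:**
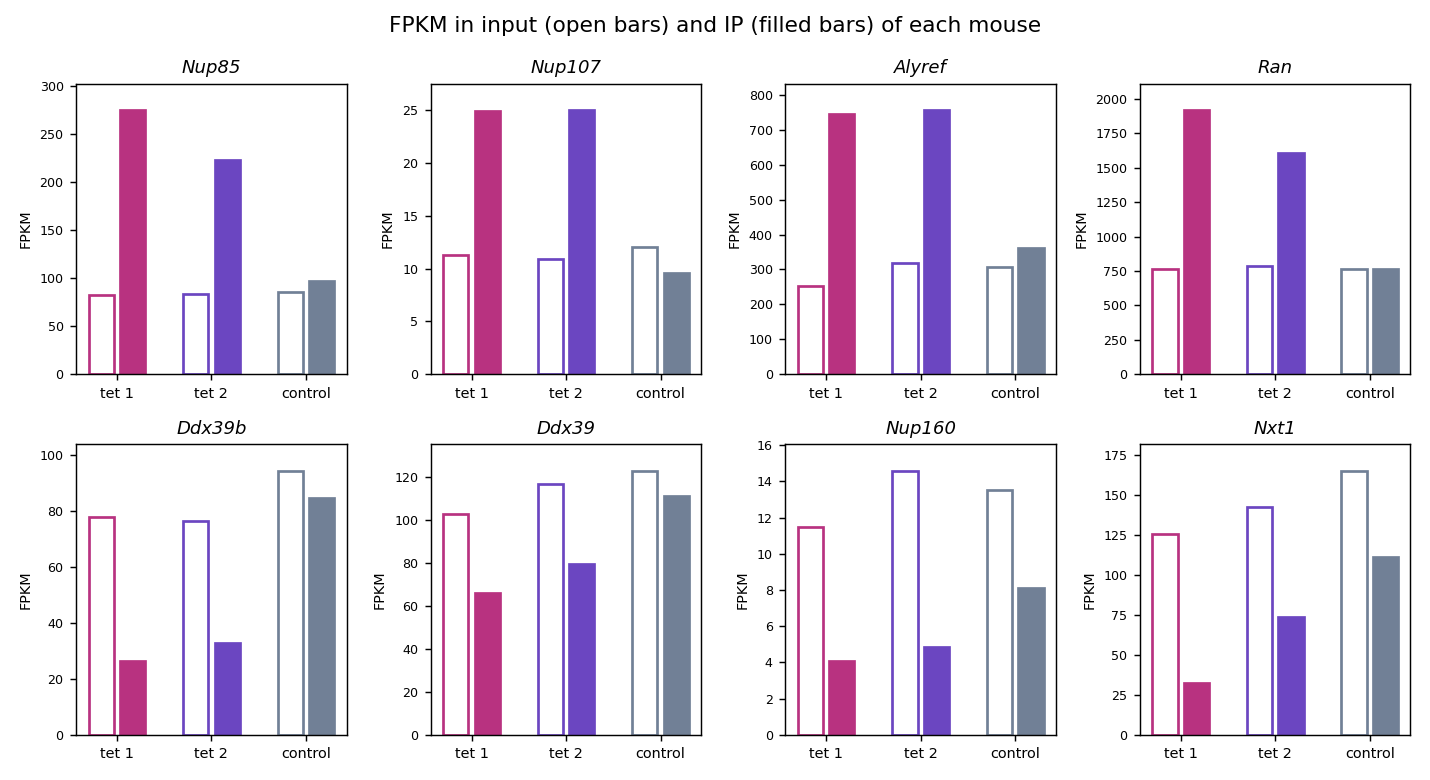
FPKM (y axis, each panel with its own scale from 0) in the input (open bars) and IP (filled bars) of tet-LIN28B mouse 1, mouse 2 and the control for 8 members. The tet-LIN28B IPs of Nup85, Nup107, Alyref and Ran stand above the control IP of the same transcript, and those of Ddx39b, Ddx39, Nup160 and Nxt1 below it.

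Of the inner ring, which lines the channel wall, 1 of the 4 members tested rose in the IP and 3 fell. The shares over all genes were 20.4% and 41.9%. Nup93, the organiser of the inner ring, measured 12.3 FPKM in the input and 27.5 in the IP of tet-LIN28B mouse 1, 13.5 and 24.1 in mouse 2, and 14.2 and 14.2 in the control. Both tet-LIN28B ratios, 2.24 and 1.79, were above the control's 1.00, and IP against input passed (0.95 ± 0.21 (SE), adjusted p = 0.0040). The difference from the control, 0.95 ± 0.36 (SE), did not (adjusted p = 0.084). Nup205, a large scaffold partner of Nup93, measured 11.3 FPKM in the input and 3.55 in the IP of tet-LIN28B mouse 1, 12.4 and 6.47 in mouse 2, and 10.5 and 8.69 in the control. Nup188, a related scaffold protein of the same ring, measured 16.9 FPKM in the input and 3.31 in the IP of tet-LIN28B mouse 1, 18.9 and 5.96 in mouse 2, and 21.6 and 8.19 in the control. For both, IP was under input in each mouse, Nup188 with the lowest tet-LIN28B ratio of all members tested, 0.256 ± 0.0846 (SD, n = 2) against 0.379 in the control. The control ratio was also low, and the difference from the control was -0.48 ± 0.38 (SE) and did not pass (adjusted p = 0.38). Nup35, a membrane-bound linker of the ring, measured 17.4 FPKM in the input and 4.69 in the IP of tet-LIN28B mouse 1, 18.2 and 6.94 in mouse 2, and 19.3 and 9.14 in the control. It too was low in the control IP, and 83.0% of the 50-base stretches of its model also occur in Gm4353, so its reads may be divided between both genes. Nup155, the remaining inner ring member, stayed under the minimum with inputs of 4.35 to 4.56 FPKM.

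The membrane nucleoporins hold the ring in the envelope, and 1 of the 3 tested rose in the IP while none fell. Of all genes 20.4% rose and 41.9% fell. Ndc1, a transmembrane anchor, measured 10.5 FPKM in the input and 19.7 in the IP of tet-LIN28B mouse 1, 11.95 and 17.7 in mouse 2, and 11.1 and 15.9 in the control. Pom121, which is needed for pore assembly in interphase, measured 10.8 FPKM in the input and 15.9 in the IP of tet-LIN28B mouse 1, 11.5 and 11.9 in mouse 2, and 10.9 and 17.2 in the control. Nup210, a glycoprotein that projects into the space between both membranes, measured 31.6 FPKM in the input and 34.3 in the IP of tet-LIN28B mouse 1, 31.2 and 39.2 in mouse 2, and 30.4 and 74.5 in the control. Nup210 was the member with the highest ratio in the control, 2.45, against 1.09 and 1.26 in tet-LIN28B, where inputs were level. The log2 difference of -1.04 ± 0.34 (SE) missed the threshold (adjusted p = 0.053). It passed with a minimum of 10 FPKM in the inputs (adjusted p = 0.048), with a pseudocount of 5 (0.017) and with libraries scaled to an equal sum (0.025). Ndc1 and Pom121 were above input in every mouse, the control included. Nup210l, a homologue of Nup210 known from germ cells, was at 0.20 to 0.58 FPKM in the inputs and was not tested.

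In the central channel, whose phenylalanine-glycine repeats form the permeability barrier, 1 of 2 members fell in the IP and none rose. The shares over all genes were 41.9% and 20.4%. Nup62 measured 40.4 FPKM in the input and 38.5 in the IP of tet-LIN28B mouse 1, 44.4 and 38.3 in mouse 2, and 46.3 and 51.3 in the control. Nup54, its partner in the channel complex, measured 9.74 FPKM in the input and 4.23 in the IP of tet-LIN28B mouse 1, 10.6 and 6.48 in mouse 2, and 11.1 and 10.03 in the control. Both tet-LIN28B ratios were below the control's for each, as for 60.2% of all genes. Neither difference passed (-0.28 ± 0.33 (SE), adjusted p = 0.57, and -0.70 ± 0.37 (SE), adjusted p = 0.19). Nup58, the third channel nucleoporin, is in the table under its older symbol Nupl1, outside the rule for members, and was listed at 0 in all 3 inputs. This 0 may be a failed estimate and not an absent transcript, which was not tested.

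At the cytoplasmic face, where export complexes are taken apart, and in the Nup98 group, 3 of 4 members fell in the IP and none rose. Of all genes 41.9% fell and 20.4% rose. Nup214, the docking site of a remodelling helicase, measured 56.3 FPKM in the input and 35.96 in the IP of tet-LIN28B mouse 1, 53.4 and 34.1 in mouse 2, and 64.3 and 64.4 in the control. Nup88, its partner, measured 27.5 FPKM in the input and 20.6 in the IP of tet-LIN28B mouse 1, 26.9 and 24.1 in mouse 2, and 26.1 and 24.5 in the control. The tet-LIN28B ratios of all 4 members were below the control's in both mice, as were those of 60.2% of all genes. The Nup214 ratios were almost equal in both mice at 0.639 and 0.638. Rae1, an mRNA export factor bound by Nup98, measured 43.9 FPKM in the input and 24.7 in the IP of tet-LIN28B mouse 1, 40.6 and 21.8 in mouse 2, and 43.9 and 41.5 in the control. Nup98, a mobile FG nucleoporin, measured 6.56 FPKM in the input and 4.30 in the IP of tet-LIN28B mouse 1, 7.03 and 4.62 in mouse 2, and 6.37 and 5.19 in the control. None of the 4 differences from the control passed, the farthest from 0 being that of Rae1 (-0.76 ± 0.33 (SE), adjusted p = 0.13).

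The nuclear basket receives mRNPs on the inner side, and 1 of its 3 members rose in the IP while none fell. The shares over all genes were 20.4% and 41.9%. Tpr, the filament protein of the basket, measured 167 FPKM in the input and 222 in the IP of tet-LIN28B mouse 1, 166 and 231 in mouse 2, and 161 and 145 in the control. Its IP exceeded the input in both tet-LIN28B mice and not in the control, with a log2 difference of 0.59 ± 0.32 (SE) that did not pass (adjusted p = 0.21). Nup153, which attaches the basket to the ring, measured 15.1 FPKM in the input and 13.3 in the IP of tet-LIN28B mouse 1, 16.01 and 13.7 in mouse 2, and 13.4 and 12.3 in the control. Nup50, which helps to release importin cargo, measured 13.7 FPKM in the input and 22.2 in the IP of tet-LIN28B mouse 1, 12.02 and 22.3 in mouse 2, and 14.5 and 29.6 in the control. Nup50 was higher in the IP than the input of tet-LIN28B (adjusted p = 0.011), but the control ratio of 2.04 was above both tet-LIN28B ratios, 1.63 and 1.85. The interval of its difference ran from -1.03 to 0.57 on the log2 scale (95% confidence).

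Turning to export, the adaptor ALYREF and the helicases that load it held the highest and the lowest difference from the control of the 12 export factors. Alyref measured 252 FPKM in the input and 744 in the IP of tet-LIN28B mouse 1, 317 and 757 in mouse 2, and 307 and 361 in the control. The inputs and the control IP lay between 252 and 361 FPKM, both tet-LIN28B IPs lay above them, and IP/input was 2.67 ± 0.402 (SD, n = 2) against 1.18 in the control. The log2 difference from the control was 1.17 ± 0.34 (SE), which passed (adjusted p = 0.034). Ddx39b (UAP56), the ATPase that drives THO-dependent loading, measured 77.8 FPKM in the input and 26.4 in the IP of tet-LIN28B mouse 1, 76.3 and 32.7 in mouse 2, and 94.3 and 84.6 in the control. Its tet-LIN28B IPs were the lowest of the 6 libraries, and the ratio was 0.384 ± 0.0625 (SD, n = 2) against 0.897 in the control. The log2 difference from the control was -1.21 ± 0.34 (SE), the only member called lower (adjusted p = 0.031). Ddx39 (URH49), its close paralogue, measured 103 FPKM in the input and 66.2 in the IP of tet-LIN28B mouse 1, 117 and 79.3 in mouse 2, and 123 and 111 in the control. Ddx39 fell in the IP of tet-LIN28B (adjusted p = 0.023), by less than Ddx39b, and its difference from the control was -0.44 ± 0.32 (SE) (adjusted p = 0.34). Whether the paralogues differ from each other was not tested, and 16.6% of the 50-base stretches of the longer Ddx39 model also occur in models of other genes. For Alyref this share was 1.4% and for Ddx39b 2.5%, and Nup85 and Nup107 shared none.

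Both subunits of the export receptor fell in the IP, as did 41.9% of all genes. Nxf1, which carries mRNPs through the channel, measured 456 FPKM in the input and 307 in the IP of tet-LIN28B mouse 1, 410.2 and 218 in mouse 2, and 522 and 443 in the control. Nxt1, its small cofactor, measured 126 FPKM in the input and 32.6 in the IP of tet-LIN28B mouse 1, 142 and 73.6 in mouse 2, and 165 and 111 in the control. IP was below input in every mouse and furthest in tet-LIN28B, with Nxt1 at 0.388 ± 0.183 (SD, n = 2) against 0.674 in the control. Neither difference from the control passed (-0.50 ± 0.34 (SE), adjusted p = 0.31, for Nxf1 and -0.87 ± 0.43 (SE), adjusted p = 0.17, for Nxt1). Gle1, which activates the remodelling helicase at the cytoplasmic face, measured 16.99 FPKM in the input and 23.2 in the IP of tet-LIN28B mouse 1, 12.4 and 18.2 in mouse 2, and 17.01 and 19.9 in the control. Its ratios were above 1 in all 3 mice and its difference of 0.26 ± 0.35 (SE) did not pass.

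THO is the complex that couples transcription to export. Of its 6 members, 1 rose in the IP, none fell, and 4 lay above the control in both tet-LIN28B mice. The shares over all genes were 20.4%, 41.9% and 27.3%. Thoc1 measured 30.3 FPKM in the input and 41.5 in the IP of tet-LIN28B mouse 1, 24.8 and 35.2 in mouse 2, and 31.2 and 24.9 in the control. Thoc2, the large scaffold subunit, measured 19.4 FPKM in the input and 24.8 in the IP of tet-LIN28B mouse 1, 19.95 and 33.5 in mouse 2, and 27.1 and 23.4 in the control. For both, IP exceeded input in tet-LIN28B and not in the control, with log2 differences of 0.78 ± 0.34 (SE) (adjusted p = 0.12) and 0.73 ± 0.36 (SE) (adjusted p = 0.16). Thoc3 measured 51.9 FPKM in the input and 94.3 in the IP of tet-LIN28B mouse 1, 47.3 and 90.3 in mouse 2, and 45.6 and 88.6 in the control. It was the THO member called higher in the IP than in the input (adjusted p = 0.0036), yet its ratio was as high in the control, 1.95, as in tet-LIN28B, 1.82 and 1.91. The interval of its difference from the control was -0.81 to 0.69 on the log2 scale. Thoc5 measured 8.05 FPKM in the input and 11.1 in the IP of tet-LIN28B mouse 1, 9.15 and 14.5 in mouse 2, and 9.86 and 11.4 in the control. Thoc7 measured 345 FPKM in the input and 323 in the IP of tet-LIN28B mouse 1, 401 and 440.1 in mouse 2, and 403 and 285 in the control. Thoc6 measured 28.3 FPKM in the input and 22.2 in the IP of tet-LIN28B mouse 1, 26.6 and 17.1 in mouse 2, and 33.6 and 33.4 in the control. Thoc5 and Thoc7 lay above and Thoc6 below the control in both mice, with log2 differences of 0.32 ± 0.35 (SE), 0.52 ± 0.33 (SE) and -0.46 ± 0.35 (SE), none of which passed. Models of Thoc1 (51.9% of 50-base stretches, with Usp14), Thoc7 (30.1%, with Gm11100) and Thoc6 (13.6%, with Hcfc1r1) share sequence with other genes. The library kit does not mark strand, and their reads could be split between genes.

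The Ran GTPase, whose gradient sets the direction of receptor-mediated transport, measured 763 FPKM in the input and 1919 in the IP of tet-LIN28B mouse 1, 786 and 1606 in mouse 2, and 764 and 761 in the control. Inputs and the control IP were level, and both tet-LIN28B IPs stood above them at 2.28 ± 0.334 (SD, n = 2) against 0.995 in the control. The log2 difference from the control was 1.19 ± 0.35 (SE) (adjusted p = 0.036). Ranbp1, which helps RanGAP to unload Ran in the cytoplasm, measured 806 FPKM in the input and 1051 in the IP of tet-LIN28B mouse 1, 988 and 1454 in mouse 2, and 883 and 686 in the control. Its IP exceeded the input in both tet-LIN28B mice and fell short of it in the control, and the log2 difference of 0.83 ± 0.34 (SE) did not pass (adjusted p = 0.11). It passed when only genes with 50 FPKM in input and IP of both tet-LIN28B mice were tested, a minimum that selects on the IP (adjusted p = 0.028). Ran shared 15.4% and Ranbp1 24.8% of 50-base stretches with other genes, and uncertain assignment of their reads was not tested.

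**Figure D3:**
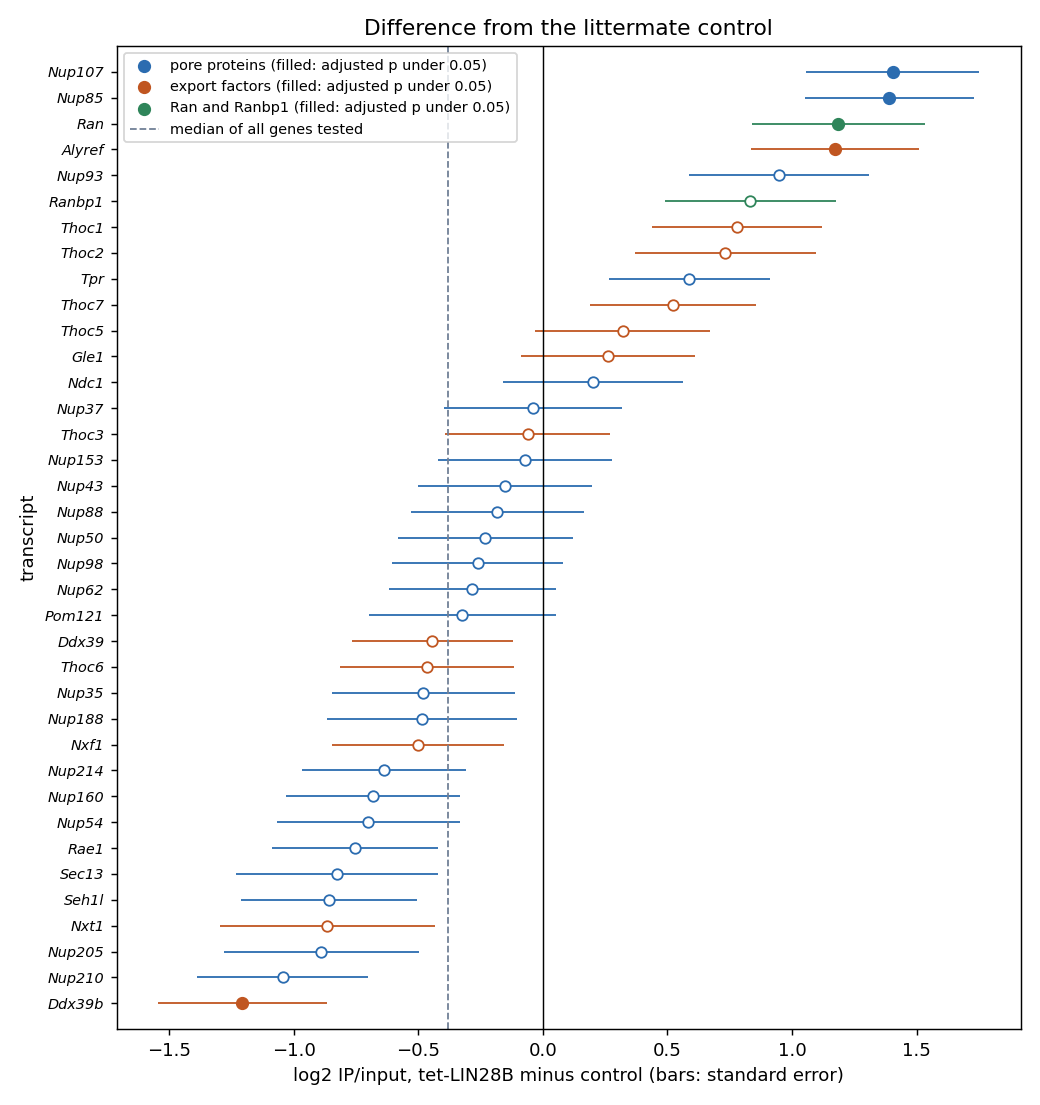
Log2 IP/input of tet-LIN28B minus control (x axis) for the 37 members tested, with bars for the standard error from limma, filled points for adjusted p under 0.05, colours for the classes and a dashed line at the median of all genes tested, -0.38. Both classes spread to either side of 0 and of the dashed line, from -1.21 for Ddx39b to 1.40 for Nup107.

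Pore proteins and export factors were then set side by side. Of 23 pore proteins, 5 rose and 10 fell from input to IP in tet-LIN28B. Of 12 export factors 2 rose and 4 fell, beside 20.4% and 41.9% of all genes. Against the control 2 pore proteins were higher and none lower, and 1 export factor was higher and 1 lower, beside 4.86% and 22.3% of all genes. Both tet-LIN28B ratios lay above the control for 5 pore proteins and below it for 17, and for 6 and 6 export factors. Of all genes, 27.3% lay above and 60.2% below. The median log2 difference from the control was -0.28 for pore proteins and 0.10 for export factors, beside -0.38 for all genes. Pore minus export was -0.36 in mouse 1 and -0.40 in mouse 2, while the control's own log2 ratios differed by 0.03. This gap turned to 0.45 with 50 FPKM asked of the inputs alone, and it was -0.01 when Rae1 was counted as an export factor and Gle1 as a pore protein. Single differences ran from -1.04 to 1.40 among pore proteins and from -1.21 to 1.17 among export factors, and the order of the classes depended on which members were counted.

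Nup107, Nup85, Ran and Alyref were higher than the control under each scaling tried, while the counts moved. Centring each mouse on its own median moved the median difference of all genes from -0.38 to -0.06, and with it 10.9% of genes were higher and 17.7% lower. On this scale 8 members were higher, Nup93, Ranbp1, Thoc1 and Thoc2 having joined the 4 above, and none was lower, since Ddx39b gave -0.89 (adjusted p = 0.063). Rescaling each library to a sum of 1000000 moved the median to -0.53, with 3.97% of genes higher and 29.5% lower. Then 4 members were higher and 2, Ddx39b and Nup210, lower. Of all calls against the control, 17.9% were higher in the FPKM as deposited, 38.0% after centring and 11.9% after rescaling. Under the study's minimum of 50 FPKM in the 4 tet-LIN28B libraries, which left 1460 genes and 8 members, 4 members were higher (Alyref, Nup85, Ran and Ranbp1) and none of the other 4 was lower, beside 23.5% and 21.8% of genes. This minimum selects on the IP: Ddx39b, with tet-LIN28B IPs of 26.4 and 32.7 FPKM, was left out by it and not tested, as were Nup107 and Nup93.

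The levels in the inputs were compared in the same way, to see whether the transcripts themselves differed in the cultures. No member tested differed between tet-LIN28B and control by limma, where 0.0255% of all genes did. At an unadjusted p under 0.05 there was 1 member, against 6.88% of all genes. That member was Thoc2, at 19.4 and 19.95 FPKM in tet-LIN28B and 27.1 in the control (log2 difference -0.44 ± 0.16, SE). Among the 5 members called against the control, input differences ran from -0.29 for Ddx39b to 0.02 for Ran on the log2 scale. In bulk libraries such as these, fewer cells of a type and less RNA per cell cannot be told apart.

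Other genes of the same pathways were taken from lists written by hand, to be read beside the 4.86% of all genes higher and 22.3% lower than the control. Of 24 transport receptors tested, from a list of 27, none was higher than the control and 2 were lower, Nutf2, the importer of Ran (-1.86 ± 0.32, adjusted p = 0.0053), and Xpo6, the exporter of actin (-1.17 ± 0.37, adjusted p = 0.048). Of 22 further mRNA export factors 5 were higher and 1 was lower. Higher were Rbm8a (1.72 ± 0.33) and Magohb (1.32 ± 0.33) of the exon junction complex, Sem1 (1.20 ± 0.33) and Cetn3 (1.07 ± 0.34), small subunits of the TREX-2 complex, and the cap-binding Ncbp1 (1.16 ± 0.35), with adjusted p-values from 0.0071 to 0.046. Cetn3, unlike the other 4, did not pass for IP against input in tet-LIN28B (ratio 1.14, adjusted p = 0.44), and its control ratio was 0.539. The lower one was Pcid2 of TREX-2 (-1.15 ± 0.36, adjusted p = 0.046). Of 8 further pore proteins 4 were tested, of which 1 was lower and none higher. That was Aaas (aladin), with 18.6 FPKM in the input and 0.530 in the IP of tet-LIN28B mouse 1, 33.4 and 2.38 in mouse 2, and 38.1 and 29.3 in the control (log2 difference -3.14 ± 0.35, adjusted p = 0.0013). All of these comparisons share the one control mouse with those of the members.

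Length and base composition were looked at last, since IP/input moved with both. Over 7815 genes with a GENCODE model, log2 IP/input of tet-LIN28B correlated with transcript length at a Spearman rho of 0.369, and the control ratio at 0.432. Over the 37 members the values were 0.121 and 0.28. The difference from the control correlated with GC content at -0.316 over all genes and -0.375 over the members, and with length at 0.207 and -0.065. GGAG per kilobase correlated with that difference at -0.025 over all genes and 0.219 over the members, and GGAGA at 0.058 and 0.211. The genes share the same libraries, so these values are descriptions across genes, and a weak one is no finding. Pore models had a median length of 3542 nt and export models of 2591.5 nt. With all genes divided by length into 3 groups of like size, bounded at 1732 and 3227 nt, the median difference from the control was -0.32 for 4 pore proteins and -0.46 for 3 export factors among the shortest, -0.18 for 7 and -0.28 for 4 in the middle, and -0.40 for 12 and 0.73 for 5 among the longest. The pore median was thus above the export median in the shorter groups and below it in the longest, each on few transcripts. The part of GC content in the results was not tested.

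**Figure D4:**
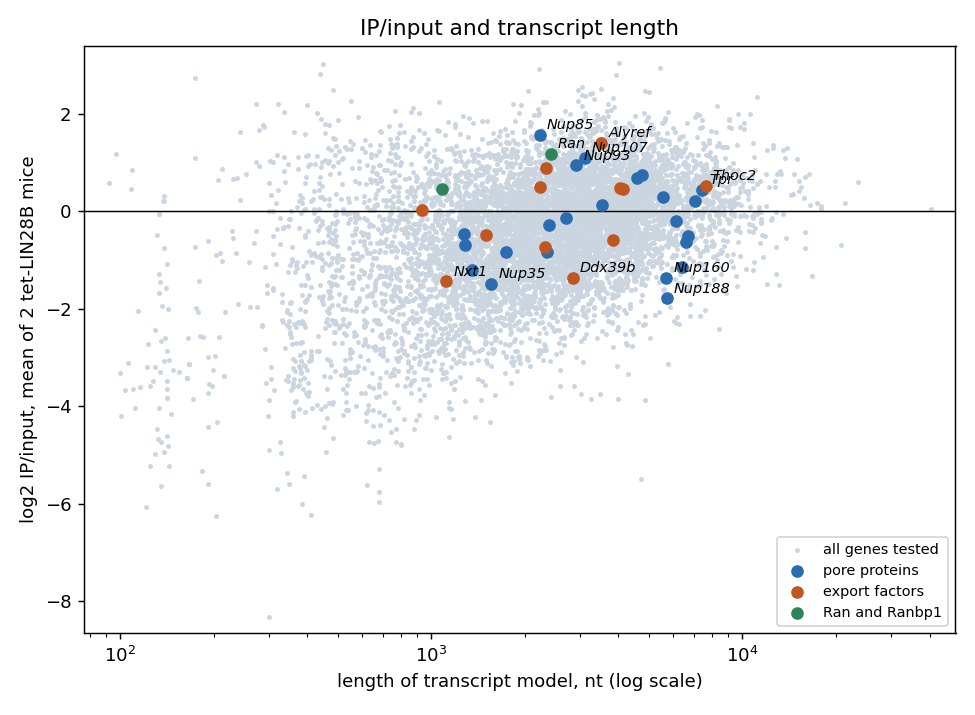
Mean log2 IP/input of the 2 tet-LIN28B mice (y axis) against the length of the transcript model in nt (log scale x axis), with grey points for all genes tested that had a model and coloured points for the members. The grey cloud rises with length (rho 0.369), while Nup188 and Nup160 lie low among the long members and Ran and Ranbp1 above 0 among shorter ones.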

How the data were processed

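Input and anti-FLAG IP libraries of 2 tet-LIN28B mice and 1 littermate control were analysed. The deposited values are FPKM, which the authors obtained with RSEM 1.28 after STAR 2.7.1 alignment on mm10 (versions also in the submitters' processing notes). The sources used here do not give the annotation release. Per the study, RNA was poly-A selected for the IP, and the inputs are once called total RNA, while the labels give 1 library protocol for all. This could move IP/input, in the control too. FPKM hold no counts, so depth and counting error are unknown. Samples were grouped by their titles, which the column names match. Sample descriptions end in a line that swaps the fractions, which was not followed. No pair of libraries held identical values.

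Genes with at least 5 FPKM in all 3 inputs were kept, 7837 in all. The study's minimum of 50 FPKM in input and IP of both tet-LIN28B mice selects on the IP and keeps 8 members, and served as an alternative. With limma 3.58.1 in R 4.3.3, 1 value per mouse, log2((IP + 1)/(input + 1)), was modelled on genotype, with a trend on mean input. Folds are on this scale, with a pseudocount of 1 FPKM, which understates changes of low genes. The tet-LIN28B mean was tested against 0 and against the control, two-sided, with Benjamini-Hochberg adjustment over all genes and a threshold of 0.05. The prior degrees of freedom were 7.59. Input and IP come from the same mouse, so the ratio pairs them, and between the tet-LIN28B mice the deviations of input and IP correlated at 0.272 across genes. Inputs were compared by limma on log2(FPKM + 1).

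Transcript length, GC and motifs come from 1 GENCODE M21 model per gene, read with Python 3.11.15 and samtools 1.23.1, which matched 7815 genes tested and all 40 members. Shared sequence was counted in stretches of 50 bases. Values in every library are given for all members tested. The rule asked for them for the export factors, Ran, Ranbp1, members called against the control, and the 2 highest and 2 lowest of each role, which leaves out Nup37, Nup43 and Seh1l. The members, roles and lists were chosen with earlier results of these data known.

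Both contrasts were tested on simulated data. Of genes changed by 1 on the log2 scale, tet-LIN28B minus control recovered 30% with the spread as fitted. With a spread differing between genes it recovered 10% with 201 genes changed and 49% with 2001. IP minus input recovered 97%, 84% and 94% in the same settings. A member that did not pass against the control may therefore still differ by about 1. In the same settings and order, tet-LIN28B minus control also called 8, 31 and 127 unchanged genes, and IP minus input called 7, 49 and 104. A call may therefore be false too. Alternatives changed scaling, filter, pseudocount, trend, replicate block, roles and the ratio threshold, and left out each tet-LIN28B mouse. Proteins and let-7 were not analysed here.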

Additional observations from a re-analysis of the deposited data

Results flagged for a closer look

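In the data as deposited, IP/input differed between tet-LIN28B and the littermate control for 5 members by limma, in both tet-LIN28B mice on the same side of the lone control. On the log2 scale the differences were 1.40 for Nup107 and 1.39 for Nup85 of the outer ring, 1.19 for Ran and 1.17 for the adaptor Alyref, and -1.21 for the helicase Ddx39b. The adjusted p-values ran from 0.019 for Nup85 to 0.036 for Ran. Of all genes tested, 4.86% were called higher and 22.3% lower. In both tet-LIN28B mice 27.3% of all genes lay above the control and 60.2% below it.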

How the results depend on the processing

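The design has 1 control mouse, 1 residual degree of freedom and no counts. The median standard error of a member's difference from the control was 0.35 on the log2 scale. Leaving out a tet-LIN28B mouse left values with no test. The control could not be left out. Nup107, Nup85, Ran and Alyref stayed higher than the control, and Ddx39b lower, in direction under every alternative in which they were tested. Members higher in the IP than the input of tet-LIN28B numbered 4 with 50 FPKM in the inputs, 5 under the study's minimum, 13 with a pseudocount of 5, 14 after rescaling and 16 after centring, in place of 8. Over all genes the same settings gave 471 of 2045, 526 of 1460, and 1767, 1788 and 2485 of 7837, in place of 1602. Members lower numbered 6, 2 and 9 with 50 FPKM in the inputs, the study's minimum and centring, in place of 14. Over all genes these settings gave 1007 of 2045, 515 of 1460 and 2661 of 7837 lower, in place of 3284. Against the control 0 were higher with a pseudocount of 0.1, 8 after centring and 2 without the replicate block, in place of 4, and over all genes this last setting gave 157 higher and 774 lower, in place of 381 and 1750. Lower, in place of 1, were 2 with 10 FPKM in the inputs, a pseudocount of 5 or rescaling, and 0 under the study's minimum, which selects on the IP and leaves Ddx39b out, a pseudocount of 0.1, centring or no replicate block. Over all genes a pseudocount of 0.1 gave 133 higher and 870 lower, and a pseudocount of 5 gave 578 and 2101. Centring gave 851 higher and 1387 lower, and rescaling gave 311 and 2309. With 10 FPKM in the inputs 347 of 5783 genes were higher and 1426 lower, and under the study's minimum 343 and 318 of 1460. Pore minus export was -0.22 with 10 FPKM in the inputs, 0.45 with 50 FPKM, 0.95 under the study's minimum, -0.41 and -0.33 with pseudocounts of 0.1 and 5, and -0.0097 with Rae1 and Gle1 exchanged, in place of -0.38, and -0.40 to -0.36 without either tet-LIN28B mouse. Members at a ratio of at least 2 numbered 3 of 12 tested with 50 FPKM in the inputs and 3 of 8 under the study's minimum. Of the 37 members of the main setting, 8 reached a threshold of 1.5 and 1 reached 3, in place of 5. Without either mouse the number was 4 to 5. The share over all genes was 9.84% in the main setting. It is not given for the other settings, so these counts have no background to be read against. Centring turned 8 small differences positive, Nup153 (0.24), Nup37 (0.28), Nup43 (0.16), Nup50 (0.085), Nup62 (0.032), Nup88 (0.13), Nup98 (0.054) and Thoc3 (0.26), none of them called. Fewer genes were tested under the stricter minimums, and for the other settings the cause was not tested.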
